A study of Mus musculus with 84 samples.

Results

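The enzymes of sterol and fatty acid synthesis, with the genes that control them, were followed step by step in RNA-seq of isolated and cultured mouse astrocytes. The 30 genes were taken by name. Acly and Acat2 stand at the supply of acetyl-CoA and its first condensation, and Hmgcs1, Mvk, Pmvk and Mvd at the mevalonate steps. Idi1 and Fdps stand at the isoprenoid steps, and Fdft1, Sqle and Lss at the formation of squalene and lanosterol. Cyp51, Tm7sf2, Msmo1, Nsdhl, Hsd17b7, Ebp, Sc5d and Dhcr7 lie between lanosterol and the sterol end products. Srebf1, Srebf2, Scap, Insig1 and Insig2 are regulators and Stard4 is a sterol carrier. Acaca, Fasn, Elovl6, Scd1 and Scd2 act in fatty acid synthesis. All 30 were found among the 48526 genes of the EAE table and the 25773 genes of the subtype table, and all passed the filter on low counts.

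Cells make cholesterol from acetyl-CoA through mevalonate, farnesyl diphosphate, squalene and lanosterol, and make fatty acids from the same acetyl-CoA by the enzymes Acaca and Fasn, after which Elovl6 lengthens and Scd1 and Scd2 desaturate them. When sterol is low in the endoplasmic reticulum, Scap escorts the SREBP proteins encoded by Srebf1 and Srebf2 to the Golgi, where they are cleaved and become transcription factors for these enzymes; Insig1 and Insig2 hold them back when sterol is plentiful. In the central nervous system, cholesterol is made locally, with astrocytes as a main source in the adult and oligodendrocytes as a main source for myelin.

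The EAE experiment held 66 libraries of C57BL/6J mice in 12 groups: GLASTneg and GLASTpos astrocytes of the hindbrain (HB) and GLASTneg astrocytes of the spinal cord (SC), each from unimmunized controls (C), mice at score 1 with a limp tail (E1), at score 4 with hind leg paralysis (E4) and at chronic disease (Ech). There were 5 libraries in each control group and in SC E1, 4 in HB GLASTpos Ech and 6 in every other group. EAE is an autoimmune disease model in which a peptide of myelin oligodendrocyte glycoprotein, given with complete Freund's adjuvant and pertussis toxin, here to 10-week-old females, drives immune cells into the nervous system; unimmunized controls had none of these agents, so immunization and disease cannot be told apart. The subtype experiment held 15 libraries of FVB/N wildtype mice in 5 sets of 3, forebrain (FB) and HB of both GLAST classes and SC GLASTneg, and 3 libraries of neonatal astrocytes (C57BL/6J) kept in culture, grown from cerebrum with L929-conditioned medium and left in the flask after microglia were shaken off. Isolated cells were sorted as ACSA-2 positive and CD11B and CD45 negative, and a library could pool cells of up to 2 mice; which libraries share mice is not stated, and p-values measure the spread between these libraries. Column names of the EAE libraries hold 35 numbers, of which 31 recur in more than 1 population and none in more than 1 stage; 9 libraries hold 2 numbers. Tests between populations are therefore also given with libraries that share a number as a block, a fit chosen after seeing the data; comparisons of stages lie between blocks.

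Depth was between 1313682 and 4895220 counts per library in EAE (median 2936680), between 416768 and 1269316 in isolated FVB/N astrocytes (median 907710) and between 2183464 and 8188074 in cultured astrocytes. The label astrocyte was checked on markers before any result. Summed expression of 10 astrocyte genes was 26926 ± 2862 CPM (counts scaled by the library total; mean ± SD, n = 5) in control HB GLASTneg and 33534 ± 578 in control HB GLASTpos libraries, against 2929 ± 1342 and 1235 ± 74.3 CPM for 10 oligodendrocyte genes. In control SC GLASTneg libraries the 2 sums were close, 19670.5 ± 2707 CPM for astrocyte and 20894 ± 10671 CPM for oligodendrocyte genes (n = 5), and their course through EAE is given with the spinal cord results. In bulk RNA, fewer cells of a type and less RNA per cell cannot be told apart. One library labelled SC E1 replicate 1 in its title is called hindbrain in another label; it had 45.8 CPM of Hoxc8, a gene of the trunk spinal cord that was at 5.13 CPM or less in every HB library, and it was kept in SC; without it, 9 members were higher at E1, as with it.

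Sequence upstream of the genes is shown for 4 members that stand for the different courses described below, Hmgcs1 and Cyp51, which were higher at E1, and Msmo1 and Insig1, which were lower at Ech. SREBP binds sterol regulatory elements, often beside a CCAAT box, the site of NF-Y. Promoter windows of 300 bases around the start site were read from RefSeq on GRCm38.p6, in which 24 of the 30 members had at least 1 window. Capitals mark matches on either strand to the letters TCACNCCAC, a form of the sterol regulatory element, or CCAAT, which reads ATTGG on the other strand.
Hmgcs1 (chr13:119690101-119690400, plus strand): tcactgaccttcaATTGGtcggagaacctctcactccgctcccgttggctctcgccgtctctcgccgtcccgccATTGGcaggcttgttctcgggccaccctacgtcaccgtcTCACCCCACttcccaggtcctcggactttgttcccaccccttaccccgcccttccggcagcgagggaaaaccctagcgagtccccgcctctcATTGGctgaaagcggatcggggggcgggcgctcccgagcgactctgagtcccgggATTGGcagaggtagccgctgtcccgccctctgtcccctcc
Cyp51 (chr5:4104648-4104947, minus strand): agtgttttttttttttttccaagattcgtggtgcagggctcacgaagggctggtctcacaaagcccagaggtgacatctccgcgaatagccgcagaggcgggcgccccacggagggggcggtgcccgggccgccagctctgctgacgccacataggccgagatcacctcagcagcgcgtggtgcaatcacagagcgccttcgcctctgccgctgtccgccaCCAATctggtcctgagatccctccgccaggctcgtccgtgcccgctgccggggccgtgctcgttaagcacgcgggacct
Msmo1 (chr8:64733529-64733828, minus strand): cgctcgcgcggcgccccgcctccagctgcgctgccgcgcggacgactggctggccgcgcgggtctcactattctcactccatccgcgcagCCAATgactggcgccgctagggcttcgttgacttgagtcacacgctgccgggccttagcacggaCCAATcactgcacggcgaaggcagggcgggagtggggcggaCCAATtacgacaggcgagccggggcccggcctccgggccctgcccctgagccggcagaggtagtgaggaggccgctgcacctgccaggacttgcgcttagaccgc
Insig1 (chr5:28071162-28071461, plus strand): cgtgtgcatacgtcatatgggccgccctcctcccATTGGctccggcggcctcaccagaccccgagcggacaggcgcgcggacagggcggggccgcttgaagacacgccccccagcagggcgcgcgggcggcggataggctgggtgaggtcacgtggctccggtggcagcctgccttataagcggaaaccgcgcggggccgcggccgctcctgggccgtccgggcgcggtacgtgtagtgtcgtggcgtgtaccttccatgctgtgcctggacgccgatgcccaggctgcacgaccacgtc

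Of these, the Hmgcs1 window alone held TCACNCCAC, 137 bases before the start site, and it also held 4 CCAAT boxes. The Msmo1 window held 3 CCAAT boxes, and the windows of Cyp51 and Insig1 held 1 each. Over all members, 1 of 32 windows matched TCACNCCAC, against 408 of 32851 windows (1.24%) of all genes, and none matched TCACNCGAC, which 0.31% of all windows held. CCAAT was found in 21 of the 32 member windows (65.6%), belonging to 20 of the 24 members, and in 37.4% of all windows. A match of letters is a description and not a binding site.

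In the SC GLASTneg libraries at E1, in which oligodendrocyte genes summed to 38836 CPM and astrocyte genes to 11487 CPM, 9 of the 30 members were higher than in controls and none was lower (edgeR quasi-likelihood test, Benjamini-Hochberg adjusted p under 0.05; among all 23324 genes tested, 3.94% were higher and 4.48% lower). The largest of these differences were in sterol synthesis. Hmgcs1, the synthase of HMG-CoA, had a log2 fold change of 1.17 ± 0.23 (SE, edgeR adjusted p = 0.000208) and Pmvk, the second mevalonate kinase, 1.21 ± 0.27 (0.00138). Cyp51, the demethylase of lanosterol, had 1.16 ± 0.22 (0.000124) and Hsd17b7, a sterol ketone reductase, 1.13 ± 0.27 (0.00335). The middle step Sqle did not pass, though every E1 library was above every control. Between lanosterol and the sterol end products, medians of Dhcr7 and Tm7sf2 were lower at E1 than in controls (44.2 against 65.4 and 21.4 against 33.2 CPM). Neither passed, while Cyp51, Hsd17b7, Ebp and Sc5d of the same stretch passed as higher. Smaller differences were found for Acat2 (0.91), Ebp (0.80), Sc5d (0.91), Fasn (0.71) and Scd2 (0.88), the main Scd gene of brain, with adjusted p between 0.0042 and 0.014. The median log2 fold change over the 30 members was 0.51, against 0 over all genes tested, and 24 of 30 were above 0. Leaving out E1 replicate 3 alone brought the adjusted p of Acat2 to 0.0513, and those of Fasn and Scd2 to 0.0844 and 0.0663; E1 replicate 4 (0.0687 and 0.0547), C replicate 2 for Fasn (0.0617) and C replicate 1 for Scd2 (0.0509) also ended a call.

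At E4 the members went both ways, in libraries whose oligodendrocyte genes summed to 48925 CPM and astrocyte genes to 3680 CPM. Lower than control were 6 members (12.7% of all genes were lower): Tm7sf2, a sterol reductase, by a log2 fold change of -2.67 ± 0.48 (adjusted p = 9.99e-06, edgeR), Srebf1, the SREBP gene tied most to fatty acid synthesis, by -2.19 ± 0.39 (8.61e-06), Msmo1, the methylsterol monooxygenase, by -0.86 ± 0.20 (0.000463), Dhcr7, the reductase of the last step to cholesterol, by -1.06 ± 0.34, Insig2 by -1.05 ± 0.30 and Scd1 by -0.86 ± 0.27. Higher were 4 (9.76% of all genes): Pmvk by 1.44 ± 0.26, Ebp, the sterol isomerase, by 0.90 ± 0.20, Sc5d, a sterol desaturase, by 0.67 ± 0.21 and Cyp51 by 0.63 ± 0.21. The members' median was 0.06. Out of 30 members, both counts were not far above the shares of all genes, so the counts alone do not set the members apart at E4. Single libraries ended 5 of these 10 calls: without E4 replicate 1, the adjusted p was 0.0615 for Dhcr7 and 0.0619 for Scd1, without C replicate 1 it was 0.0683 for Cyp51 and 0.0520 for Insig2, without E4 replicate 6 it was 0.0512 for Cyp51, and without C replicate 4 it was 0.0518 for Sc5d.

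In chronic disease, 10 members were lower than control and none was higher (11% and 7.64% of all genes). Msmo1 had a log2 fold change of -1.88 ± 0.20 (adjusted p = 4.75e-12, edgeR), Insig1, whose product retains SREBP, -1.90 ± 0.36 (2.82e-05), Tm7sf2 -1.85 ± 0.46 (0.00187), Srebf1 -1.76 ± 0.39 (0.00035), Dhcr7 -1.67 ± 0.34 (0.000116) and Scd1 -1.42 ± 0.28 (4.7e-05). Also lower were Mvd (-1.09), the decarboxylase that is the last of the mevalonate steps and the only 1 of 4 genes of these steps to pass, Fdps (-1.07), the farnesyl diphosphate synthase, and Fdft1 (-1.18), the squalene synthase. Idi1 also passed (-3.06 ± 1.12, edgeR adjusted p = 0.0442), but its controls spanned 0.984 to 75.4 CPM, and without C replicate 3 its log2 fold change was -0.48 (adjusted p = 0.891); leaving out any of 5 Ech libraries, replicates 1, 2, 3, 5 and 6, gave an adjusted p between 0.0605 and 0.0906. The call for Fdps ended without C replicate 4, Ech replicate 1 or Ech replicate 5 (0.0771, 0.0571 and 0.0547). The members' median was -0.30, and 22 of 30 were below 0.

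Directly between Ech and E4, 7 members were lower at Ech and none was higher (2.03% and 2.41% of all genes): Insig1 by -1.74 ± 0.35, Ebp by -1.06 ± 0.19, Cyp51 by -1.02 ± 0.20, Msmo1 by -1.02 ± 0.19, Sc5d by -0.96 ± 0.20, Pmvk by -0.80 ± 0.24 and Srebf2, the SREBP gene tied most to sterol synthesis, by -0.56 ± 0.17 (adjusted p between 7.98e-05 and 0.0379, edgeR). The calls for Pmvk and Srebf2 were the weak ones, with single libraries left out giving up to 0.108 for Pmvk without Ech replicate 6 and up to 0.130 for Srebf2 without E4 replicate 4. The stage comparisons share their control or E4 libraries. In none of the 3 stages against control did Acly, Mvk, Sqle, Lss, Nsdhl, Srebf2, Scap, Stard4, Acaca or Elovl6 pass the test.

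**Figure D1:**
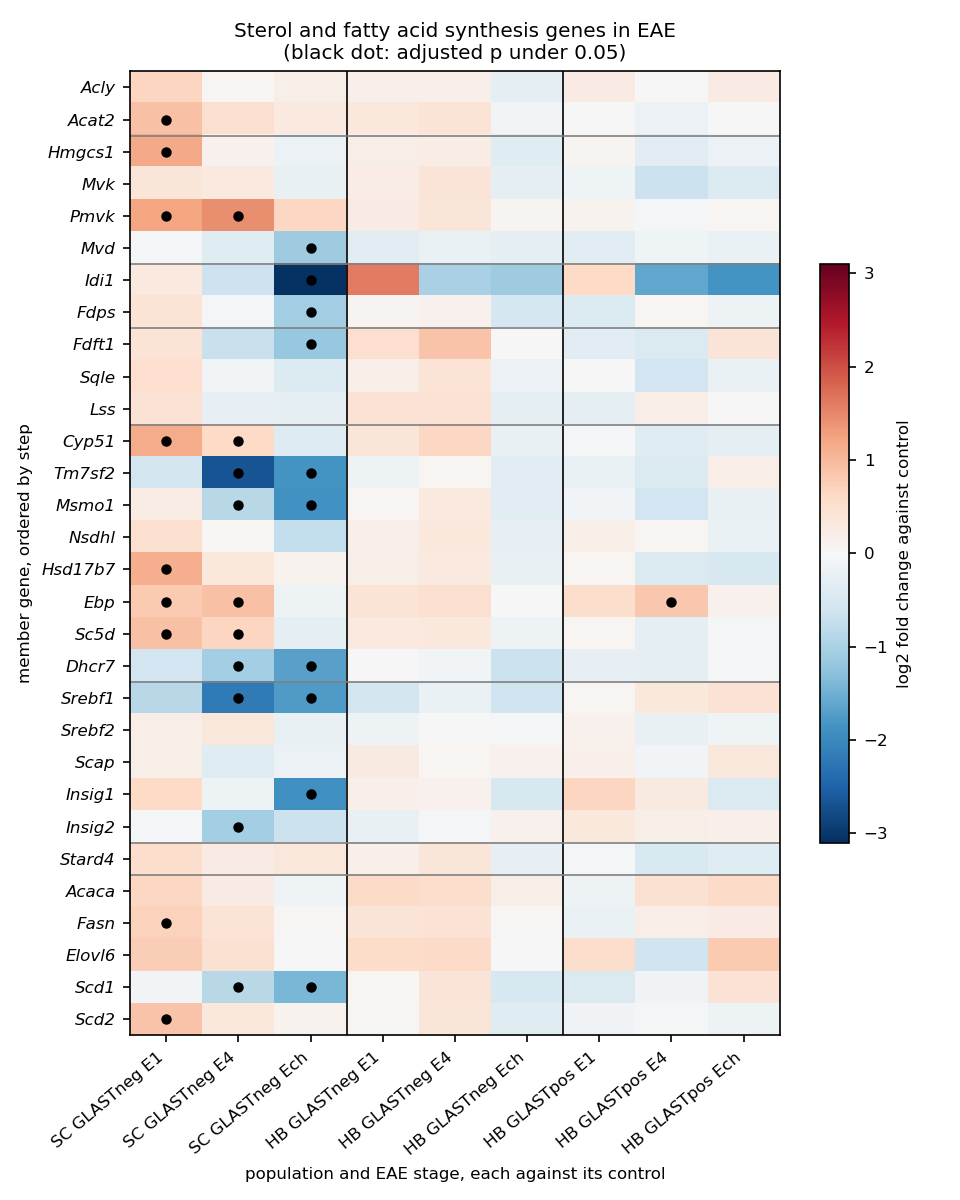
Log2 fold change of each of the 30 genes against the control of the same population (columns: 3 stages of SC GLASTneg, HB GLASTneg and HB GLASTpos; rows ordered by step; grey lines part the steps; black dots mark adjusted p under 0.05). Dots lie in the SC columns, 9 at E1, 10 at E4 and 10 at Ech, with 1 more for Ebp in HB GLASTpos at E4.

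The libraries themselves show how far the groups part. Msmo1 (ENSMUSG00000031604; chromosome 8, 64718139 to 64733792, GRCm38) was at 867, 1013, 1021, 1034 and 1072 CPM in the 5 controls and at 994, 1047, 1169, 1238 and 1406 CPM at E1. At E4 its lowest, median and highest values were 325, 557 and 762 CPM, and at Ech 215, 237 and 480 CPM. Every E4 and Ech library was thus below every control, and the Ech libraries other than the highest lay within 215 to 246 CPM. Insig1 (ENSMUSG00000045294; chromosome 5, 28071363 to 28078662) was at 55, 86.6, 88.2, 102 and 169 CPM in controls, and 68.8, 77.9, 128, 198 and 294 CPM at E1. It had 56.2, 91 and 138 CPM (lowest, median and highest) at E4 and 24.3, 27.0 and 30.0 CPM at Ech. At Ech no library reached the lowest control, and at E1 and E4 the libraries overlapped the controls.

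Srebf1 (ENSMUSG00000020538; chromosome 11, 60199089 to 60222581) was at 80, 103, 107, 122 and 136 CPM in controls and at 16.4, 54.8, 58.5, 64.8 and 109 CPM at E1. The lowest, median and highest values were 6.74, 17.6 and 55 CPM at E4 and 21.8, 32.4 and 41.8 CPM at Ech, both wholly below the controls. Tm7sf2 (ENSMUSG00000024799; chromosome 19, 6062821 to 6068373), a low gene, was at 15.4, 32.7, 33.2, 40.5 and 44.1 CPM in controls and 14.1, 14.3, 21.4, 22.1 and 39.0 CPM at E1. It was at 0, 5.32 and 8.56 CPM at E4, below all controls, and at 5.00, 8.04 and 16.7 CPM at Ech, where the highest library passed the lowest control. Of 50-base stretches at the 3′ end of Tm7sf2, 11.4% also occur in another gene, and Vps51 overlaps it on the same strand. Rai1 overlaps the 3′ end of Srebf1 on the other strand, and whether counting used strand is not given in the sources used here, so reads of such pairs may be mixed; the same holds for Mvd with Gm20388, Fdft1 with Ctsb, Lss with 4930483K19Rik and Cyp51 with Akap9.

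Dhcr7 (ENSMUSG00000058454; chromosome 7, 143823145 to 143848410) was at 60, 61.9, 65.4, 68.9 and 79.1 CPM in controls and spread from 18.3 over 33.9, 44.2 and 51.3 to 74.3 CPM at E1. It had 13.0, 32.4 and 54.6 CPM at E4 and 11.4, 17.6 and 43 CPM at Ech (lowest, median, highest), with no library in the range of the controls at either stage. Scd1 (ENSMUSG00000037071; chromosome 19, 44394455 to 44407879), a desaturase that makes oleic acid, was at 92.7, 105, 113, 125 and 152 CPM in controls and 59.2, 79.6, 111, 112 and 189.6 CPM at E1. Its values were 37.2, 73.2 and 89.1 CPM at E4 and 34.1, 45.5 and 48.2 CPM at Ech, again all below the controls. Its neighbour Scd2 did not follow: group means of Scd2 were 3153 ± 1084 CPM in controls, 5808 ± 2085 at E1, 3923 ± 1443 at E4 and 3391 ± 802 at Ech.

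None of the genes that were higher at E1 or E4 passed the test at Ech. Hmgcs1 (ENSMUSG00000093930; chromosome 13, 119690379 to 119708260) was at 591, 741, 771, 842 and 983 CPM in controls and at 1039, 1822, 1932, 1961 and 2075 CPM at E1, all above the controls. It was at 567, 888 and 1067 CPM at E4 and 474, 643 and 977 CPM at Ech (lowest, median, highest), overlapping the controls at both stages. Cyp51 (ENSMUSG00000001467; chromosome 5, 4081145 to 4104746) was at 284, 318, 372, 377 and 423 CPM in controls and at 420.2, 715, 715, 1045 and 1058 CPM at E1. Its E4 values were 436, 479 and 721 CPM, all above the controls, and its Ech values of 234, 251 and 327 CPM overlapped them from below. Ebp (ENSMUSG00000031168; chromosome X, 8185329 to 8193512) was at 141, 152, 179, 206 and 217 CPM in controls and 209.6, 303, 328, 336 and 379 CPM at E1, then 282, 315 and 436 CPM at E4 and 104, 148 and 265 CPM at Ech. Pmvk (ENSMUSG00000027952; chromosome 3, 89454541 to 89469013) was at 19.5, 32.4, 35.7, 36.7 and 38.8 CPM in controls and 29.2, 69.2, 75.4, 95.6 and 108 CPM at E1, then 63.5, 94.4 and 99.9 CPM at E4 and 35.3, 50.2 and 66.8 CPM at Ech. For Ebp and Pmvk, as for Cyp51, the E4 libraries alone lay wholly above the controls, since 1 E1 library of each fell among them.

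**Figure D2:**
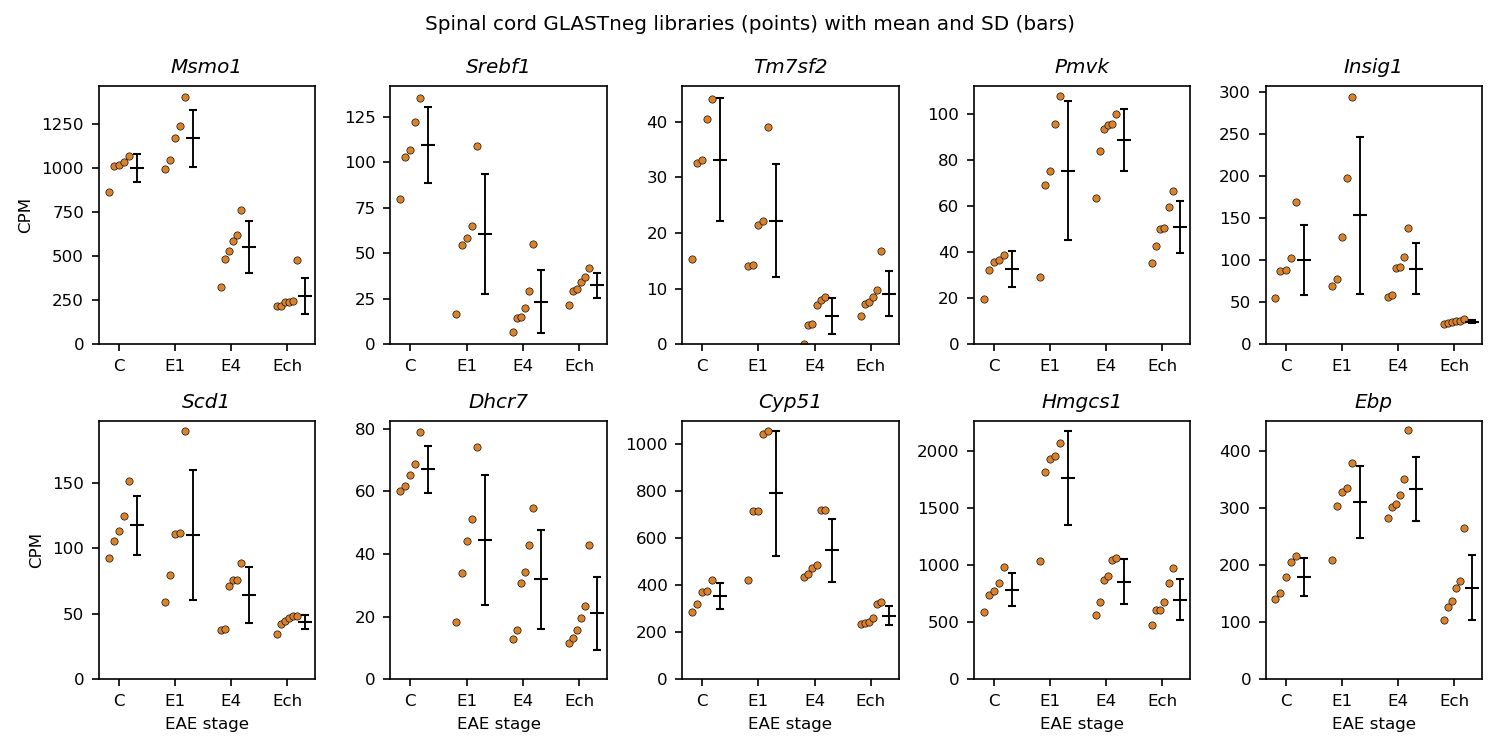
Expression in CPM (vertical axes, from 0) of 10 genes in each SC GLASTneg library (points, sorted within a stage) by EAE stage. The 10 are the members with the smallest adjusted p over the stages, and bars are the mean and SD (n = 5, 5, 6 and 6). Msmo1, Srebf1, Dhcr7 and Scd1 sit below all controls at E4 and Ech, Insig1 at Ech, and Hmgcs1 sits above all controls at E1.

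The cell type markers moved strongly in the same libraries. The 10 astrocyte genes summed to 19670.5 ± 2707 CPM in SC controls, 11487 ± 7909 at E1, 3680 ± 691 at E4 and 5295 ± 1119 at Ech, and 6, 8 and 8 of them were lower at E1, E4 and Ech, with 1 higher each time. The 10 oligodendrocyte genes summed to 20894 ± 10671, 38836 ± 12288, 48925 ± 15502 and 31104 ± 7010 CPM, with 5, 7 and 3 higher, and none was at 0 in all libraries of a group. Oligodendrocyte precursor genes (4) rose from 462 ± 162 CPM to 1796 ± 606 at Ech, where all 4 passed, and cell cycle genes (5) from 12.5 ± 12 to 542 ± 172 CPM. Myeloid genes (12) summed to 25.6 ± 12.9 CPM in controls, 103 ± 50.8 at E1, 126 to 4633 at E4 (median 159) and 106 ± 50.9 at Ech; E4 replicate 2 was the library at 4633 CPM, and without it the same numbers of members, 6 lower and 4 higher, passed at E4. T cell (3.76 to 15.4 CPM between group means), endothelial (6.57 to 29.6), ependymal (21.9 to 36.4) and neuron genes (231 to 557) were also summed (Cd3e, Cd3d and Cd3g, defining T cells, were at 0 in all controls, as was the myeloid gene Lyz2), and 7 genes that respond to dissociation summed to 153 CPM in controls and 392 to 475 CPM at the stages of EAE. The part of these shifts in the results on the 30 genes was not tested.

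Within stages, most members had a positive correlation with the oligodendrocyte sum. Over the 22 SC libraries, after each stage's mean was taken off, the correlation of the oligodendrocyte sum with a member was above 0 for 29 of 30 (96.7%), with a median r of 0.47, against 63.8% and a median of 0.17 for 6483 genes averaging 20 CPM or more. It was highest for Scd2 (Pearson's r 0.90, Spearman's rho 0.92, and 0.90 without the 2 libraries farthest out), followed by Elovl6 (0.83), Sc5d (0.72) and Scd1 (0.72), and was -0.42 for Mvd. These values are descriptions without a test, since both measures are shares of the same library total. For Msmo1, Dhcr7 and Srebf1 the values were 0.49, 0.50 and 0.39.

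**Figure D3:**
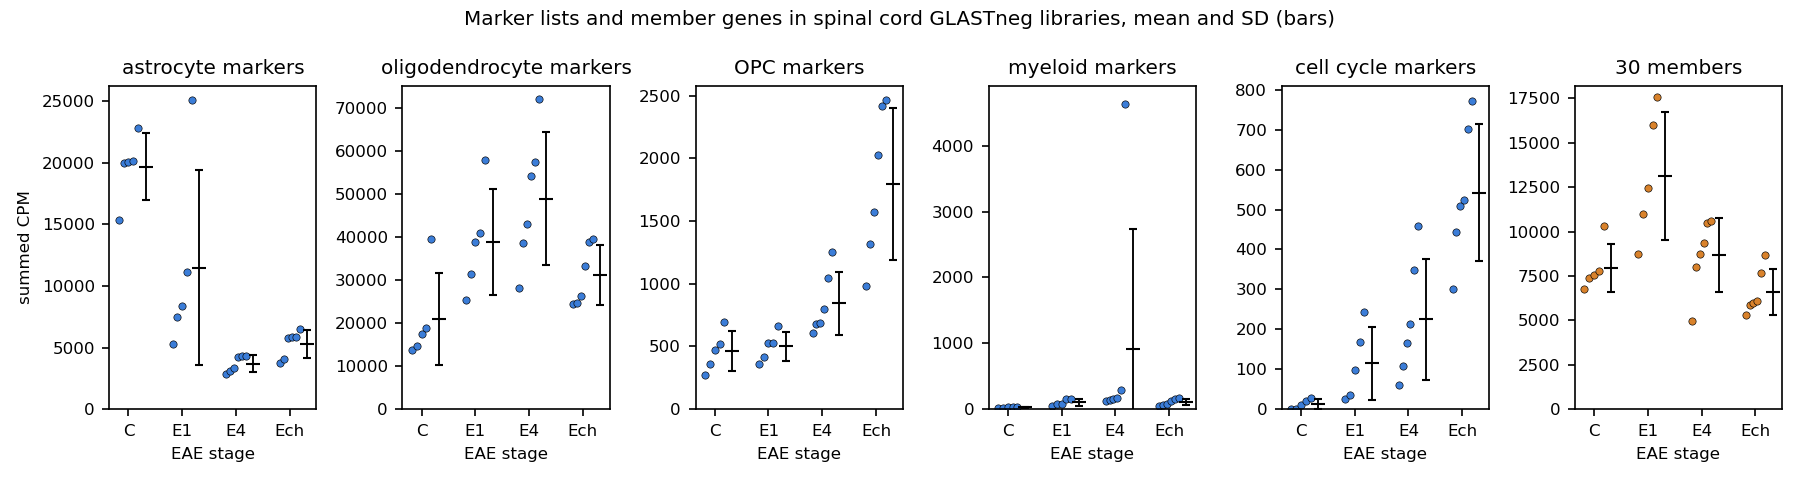
Summed CPM (vertical axes, from 0) of 5 marker lists (blue) and of the 30 genes (orange) in each SC GLASTneg library by EAE stage, with mean and SD as bars. The SD bar of the myeloid list at E4 runs below the axis because of 1 library at 4633 CPM; astrocyte markers fell while oligodendrocyte, precursor and cell cycle markers rose.

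Library names carry a sample-sheet number, whose meaning is not stated. All SC controls had a number above 56, as did 4 of 5 E1, 1 of 6 E4 and 4 of 6 Ech libraries. With libraries above 56 only, 5 members were higher at E1 (Hmgcs1, Pmvk, Cyp51, Hsd17b7 and Scd2), and 6 were lower at Ech (Msmo1, Dhcr7, Insig1, Mvd, Srebf1 and Scd1). The share of all genes was not kept for this fit. At E4, 1 library remained, too few for a fit of this kind; with the number class as a term, 1 member (Pmvk) stayed higher at E4 and 5 of the 6 lower members passed, while the edgeR adjusted p of Dhcr7 was 0.0815 at a log2 fold change of -1.15.

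In hindbrain GLASTneg astrocytes none of the 30 members passed at any stage (edgeR; smallest adjusted p 0.499 at E1, 0.235 at E4 and 0.653 at Ech), and DESeq2 called none either. In a fit of the hindbrain GLASTneg libraries alone, 1 member was called higher at E1 and 2 at E4 (the share of all genes was not kept). In the fit of all groups, 0.0171%, 0.03% and 0.00429% of all genes were lower and 0.66%, 0.725% and 0.193% higher. There the members' median log2 fold change was 0.18 at E1, 0.33 at E4 and -0.26 at Ech, against 0 over all genes. At E1, E4 and Ech, 24, 25 and 6 of the 30 members were above 0. At an unadjusted p under 0.05, 2 members were higher at E1, 4 higher at E4 and 1 lower at Ech; of all genes, 5.93%, 5.58% and 4.49% were higher and 3.64%, 3.25% and 3.16% lower at the 3 stages. Msmo1, the member with the smallest adjusted p in SC at Ech, was at 1374 ± 304 CPM in controls, 1434 ± 338 at E1, 1709 ± 360 at E4 and 1075 ± 147 at Ech, where its log2 fold change was -0.35 ± 0.20. In hindbrain GLASTpos astrocytes 1 member passed, Ebp at E4, from 61.5 ± 15.8 CPM (n = 5) to 110 ± 29.8 (n = 6), a log2 fold change of 0.84 ± 0.20 (adjusted p = 0.0072, edgeR). Its adjusted p was 0.0533 and 0.0541 without C replicate 4 or E4 replicate 1. No member passed at E1 or Ech, where 1 and 0 had an unadjusted p under 0.05 (of all genes, 6.89% were lower and 11% higher at E1, and 6.35% lower and 12.8% higher at Ech). The shares of adjusted calls among all genes there were 0.262%, 0.424% and 0.189% lower and 1.32%, 1.75% and 1.24% higher at E1, E4 and Ech. Hmgcs1, Pmvk and Cyp51, which rose in SC at E1, passed at no stage in either hindbrain population.

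Whether the response of a gene differed between spinal cord and hindbrain GLASTneg libraries was tested by an interaction term. At E1 no member passed (0.214% of all genes), and at an unadjusted p under 0.05 there were 5, all with a higher response in spinal cord (4.41% of all genes, with 8.12% lower). At E4, 5 members had a lower response in spinal cord (8.56% of all genes differed in either direction): Tm7sf2 by -2.74 ± 0.66 on the log2 scale (adjusted p = 0.00261, edgeR), Srebf1 by -1.97 ± 0.55 (0.0111), Fdft1 by -1.58 ± 0.48 (0.026), Scd1 by -1.26 ± 0.39 (0.0273) and Msmo1 by -1.18 ± 0.28 (0.0021). Fdft1 went from 301 ± 97.9 to 187 ± 48.6 CPM in SC and from 196 ± 59.5 to 365 ± 49.9 CPM in HB GLASTneg, neither of which passed alone. At Ech, 1 member passed (7.2% of all genes), Msmo1, by -1.52 ± 0.28 (edgeR adjusted p = 4.24e-05). Both contrasts share the controls of each population, and all HB GLASTneg libraries had a sample-sheet number of at most 56; with the number class as a term, the E4 differences of Tm7sf2 and Fdft1 were -2.30 and -1.36 (edgeR adjusted p 0.0694 and 0.232). With column numbers as a block, the same 5 members passed at E4 (-2.96 for Tm7sf2 and -1.31 for Srebf1), 4 at Ech (Msmo1, Fdft1, Tm7sf2 and Insig1) and 0 at E1. Of all genes in that fit, 5.63% had a lower and 1.57% a higher response at E4. These shares were 5.78% and 2.1% at Ech, and 1.3% and 0.433% at E1. The Ech count was 5 with libraries of both populations only and 2 with DESeq2 or without a filter. Leaving out C replicate 2 or 3 or E4 replicate 4 of HB, or C replicate 1, 3 or 4 or E4 replicate 1 of SC, ended the E4 call of Fdft1 or of Scd1, with adjusted p between 0.0506 and 0.0632.

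Between the populations of control mice, the contrast of the GLAST classes in hindbrain held more calls than that of the regions. In hindbrain, 15 members were higher in GLASTneg than in GLASTpos astrocytes and none was lower (8.21% and 5.33% of all genes), and 28 of 30 were above 0. By step, none of 2 passed at acetyl-CoA supply and first condensation, and the sterol carrier Stard4 did not pass. At the mevalonate steps 1 of 4 passed, at the isoprenoid steps 1 of 2 and at squalene and lanosterol formation 1 of 3. From lanosterol on 7 of 8 members passed, with 2 of 5 regulators and 3 of 5 in fatty acid synthesis. They were Mvd (2.29 ± 0.30), Fdps (1.94), Fdft1 (1.54), Cyp51 (0.77), Tm7sf2 (1.74), Msmo1 (1.66 ± 0.21), Nsdhl (1.85), Hsd17b7 (0.82), Ebp (1.37) and Dhcr7 (1.73) of sterol synthesis, Srebf2 (1.26) and Insig1 (2.01 ± 0.38) of its control, and Acaca (1.36), Fasn (0.85) and Scd1 (2.12 ± 0.30) of fatty acid synthesis. The members' median log2 fold change was 0.83, against 0.11 over all genes. Adjusted p values were between 5.85e-09 for Msmo1 and 0.0354 for Hsd17b7 (edgeR), and all but that of Hsd17b7 held without any single library; for Hsd17b7, leaving out HB GLASTneg replicate 2 or 4 or any of HB GLASTpos replicates 1 to 4 gave 0.0612 to 0.162. With column numbers as a block, 15 members were again higher (7.41% of all genes), with Elovl6 (1.45) in place of Hsd17b7 (0.74, edgeR adjusted p = 0.11).

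Msmo1 was at 1035 to 1741 CPM (1374 ± 304, n = 5) in GLASTneg and 347 to 560.0 CPM (435 ± 94, n = 5) in GLASTpos control libraries, and the groups did not overlap. Mvd was at 167 ± 45.7 against 34.2 ± 6.59 CPM, Scd1 at 144 ± 27.3 against 33.2 ± 3.71, Insig1 at 134 ± 49.9 against 33.2 ± 7.25 and Srebf2 at 640.2 ± 66.5 against 267 ± 32.7. Acly, Acat2, Hmgcs1, Mvk, Pmvk, Lss, Srebf1 and Scap were among the members that did not pass, with 0.36 ± 0.22 for Hmgcs1 and 0.06 ± 0.39 for Srebf1. Oligodendrocyte genes were also higher in GLASTneg libraries (2929 ± 1342 against 1235 ± 74.3 CPM, 9 of 10 higher and 1 lower), and their part in the result was not tested. All HB GLASTneg libraries had a sample-sheet number of at most 56 and all HB GLASTpos libraries one above 56, so that GLAST class and number class cannot be told apart here.

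**Figure D4:**
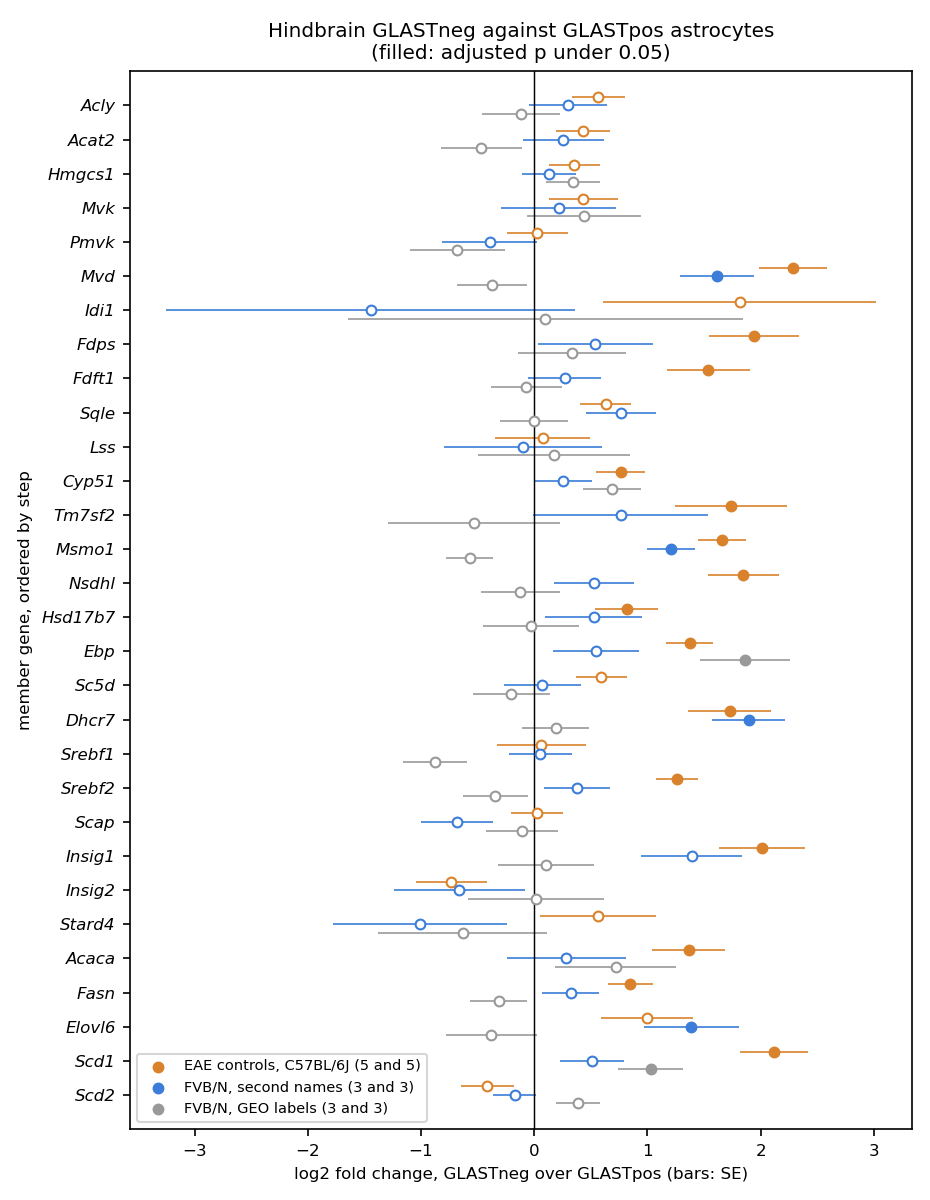
Log2 fold change of hindbrain GLASTneg over GLASTpos astrocytes (horizontal axis; bars are SE; filled points have adjusted p under 0.05) for each of the 30 genes in EAE controls (orange, 5 and 5 libraries) and in FVB/N mice by second names (blue, 3 and 3) and by GEO labels (grey, 3 and 3). In EAE controls 15 points are filled, all above 0; by second names 4 are, all above 0.

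Between control spinal cord and hindbrain GLASTneg astrocytes, Hmgcs1 (0.71 ± 0.23) and Elovl6 (1.44 ± 0.40) were higher in spinal cord (3.09% of all genes) and Srebf2 was lower (-0.59 ± 0.19; 2.25%), with adjusted p between 0.0162 and 0.0465 (edgeR). All 3 calls ended in the fit with the sample-sheet number class, at 0.95 for Hmgcs1, 1.502 for Elovl6 and -0.25 for Srebf2. With column numbers as a block, Elovl6 passed (1.28), and Hmgcs1 (0.76) and Srebf2 (-0.76) did not (of all genes, 2.49% were higher and 1.84% lower). The call of Elovl6 ended without SC control replicate 3 or 4 (0.124 and 0.0508). For Hmgcs1 and Srebf2, 7 and 8 of the 10 single libraries ended the call when left out (up to 0.145 and 0.137). Oligodendrocyte genes summed to 20894 ± 10671 CPM in these spinal cord controls and to 2929 ± 1342 CPM in these hindbrain controls. Their part in the result was not tested. All these spinal cord controls had a sample-sheet number above 56 and all these hindbrain controls one of at most 56. Among these controls, region and number class cannot be told apart.

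In the subtype experiment the labels of 12 of the 15 isolated libraries differ from a second set of names, and region and GLAST genes go against some of the labels. Libraries labelled HB GLASTneg held the spinal cord genes Hoxc8 (118 to 176 CPM) and Hoxa7 (65.8 to 77.3), which were at most at 1.09 and 9.35 CPM in all other isolated libraries, including those labelled SC. Slc1a3, which encodes GLAST, was highest in libraries labelled SC GLASTneg (9790 to 11200 CPM). The second names, from the column heads of a normalized table that the study issued and that was matched to the libraries by proportional values, give HB GLASTneg for the libraries labelled FB GLASTpos, SC GLASTneg for those labelled HB GLASTneg, FB GLASTpos for those labelled HB GLASTpos and HB GLASTpos for those labelled SC GLASTneg, and are the same for FB GLASTneg. For the sets labelled HB GLASTneg and SC GLASTneg, these genes go with the second names, SC GLASTneg and HB GLASTpos, and not with the labels. A region or GLAST class in a result by the labels is thus only that of the label. The genes of this check were chosen after the values were seen. Results are given by the labels and by the second names.

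Over the 5 library sets, whatever their names, 9 of 30 members differed (F test, edgeR; 10.2% of 14957 genes): Msmo1 (adjusted p = 2.31e-14), Dhcr7 (5.26e-08), Mvd (7.11e-06), Hmgcs1 (0.000405), Ebp (0.00166), Sqle (0.0171), Scd1 (0.0276), Elovl6 (0.0287) and Srebf1 (0.0359); Nsdhl came next (0.0658). For Msmo1, libraries labelled SC GLASTneg had 410, 410 and 435 CPM, below every other isolated library, the next being at 784 CPM in those labelled FB GLASTpos. Its means were 1767 ± 237 CPM in libraries labelled FB GLASTneg, 958 ± 181 in FB GLASTpos, 1308 ± 174 in HB GLASTneg, 1947 ± 65.6 in HB GLASTpos and 419 ± 14.3 in SC GLASTneg (n = 3 each). Dhcr7 had 36.5 ± 3.5 CPM and Mvd 45.8 ± 13.8 CPM in libraries labelled SC GLASTneg, against group means of 135 to 185 and 140 to 197 CPM in the other 4 sets. That set is named HB GLASTpos in the second names. Hmgcs1 was highest in libraries labelled HB GLASTneg (709 ± 40.6 CPM), which the second names call SC GLASTneg, and lowest in those labelled SC GLASTneg (328 ± 52.7); Ebp had 132 ± 43.1 CPM in the former and 36.1 ± 8.94 in those labelled HB GLASTpos. Calls that ended without a single library were those of Sqle, Scd1, Elovl6 and Srebf1, with 2, 5, 5 and 9 of the 15 libraries and adjusted p up to 0.206. The calls of Srebf1, Sqle and Elovl6 also ended under filterByExpr, that of Srebf1 under RLE scaling and that of Sqle under DESeq2.

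**Figure D5:**
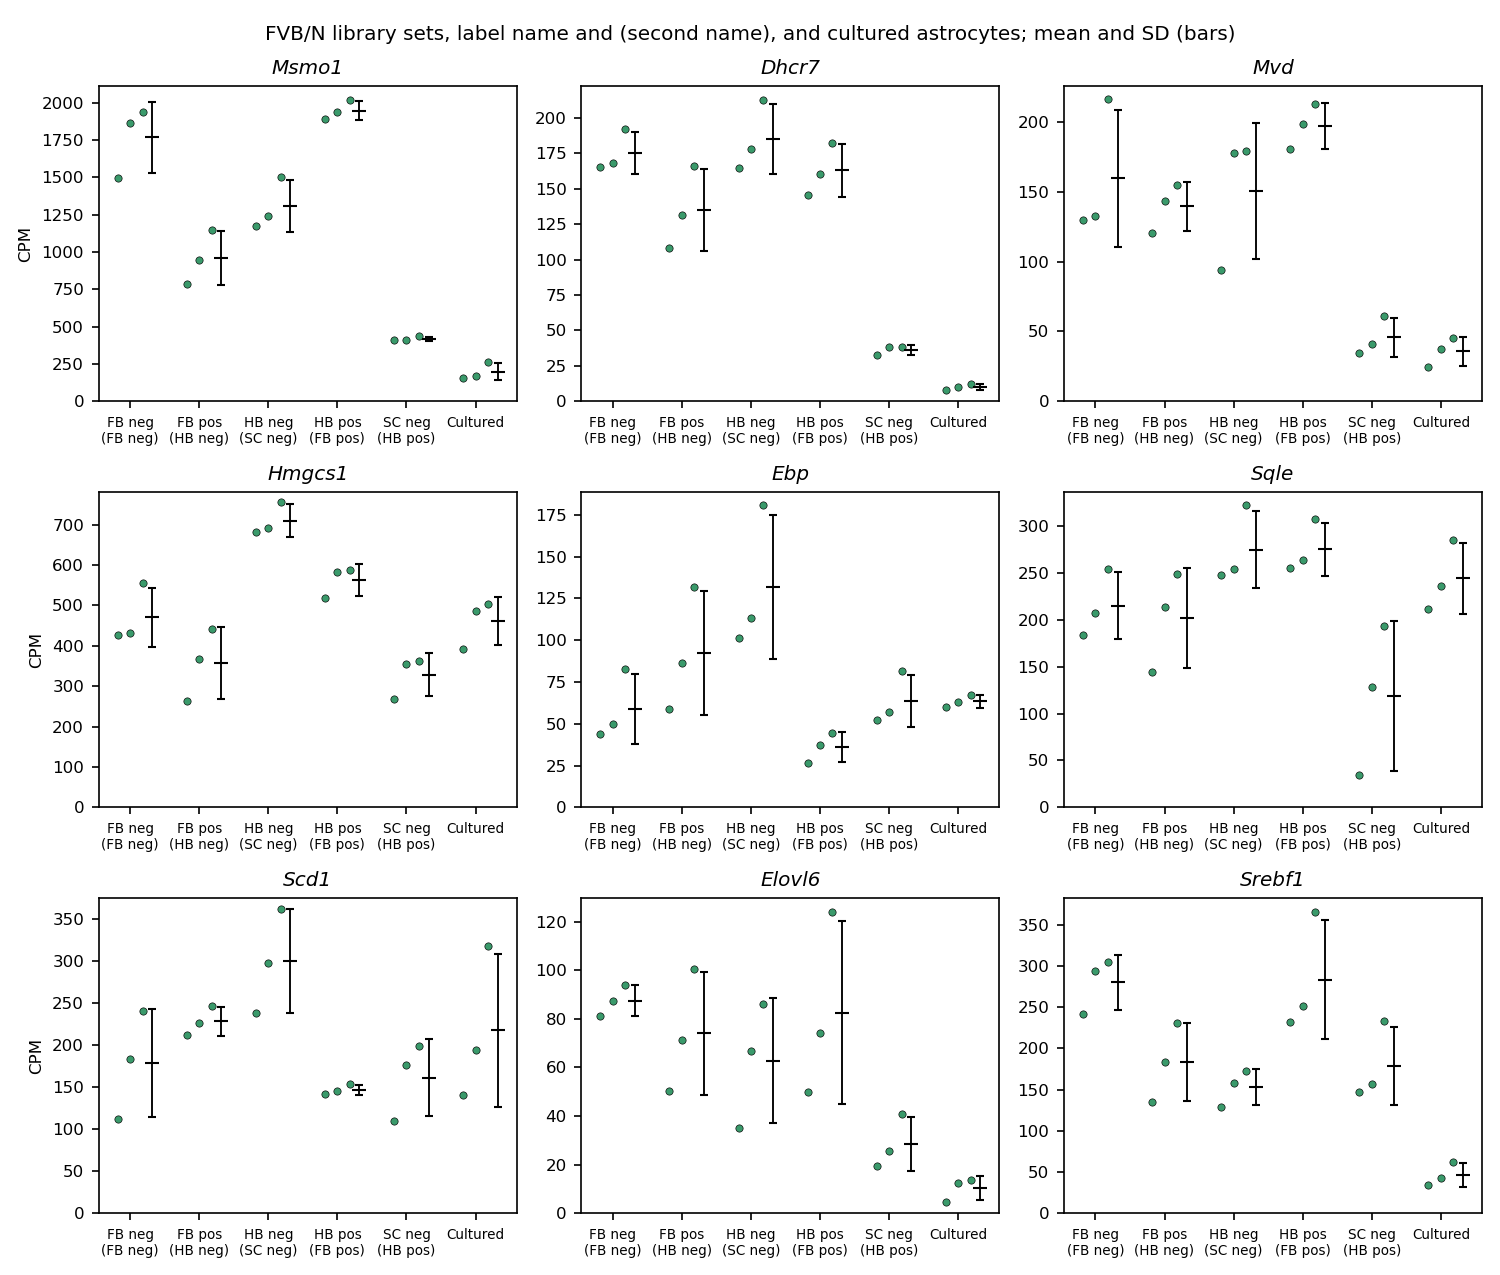
Expression in CPM (vertical axes, from 0) of the 9 genes that differed over the 5 FVB/N library sets, in each library (points), by label with the second name in brackets, and in cultured astrocytes; bars are mean and SD (n = 3). Msmo1, Dhcr7 and Mvd are low in libraries labelled SC neg, named HB pos in the second names, and in cultured astrocytes.

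The pairs changed with the names. For forebrain GLASTneg against GLASTpos, Msmo1 was higher by 0.88 ± 0.21 by the labels (0.608% of all genes higher, 0.709% lower), and no member passed by the second names (0.147% higher, 0.0334% lower; no member had an unadjusted p under 0.05, against 2.21% of all genes higher and 1.35% lower). For hindbrain, Ebp (1.86 ± 0.39) and Scd1 (1.03 ± 0.29) were higher in GLASTneg by the labels (2.16% higher, 2.13% lower), and by the second names Dhcr7 (1.90 ± 0.32), Mvd (1.62 ± 0.33), Elovl6 (1.39 ± 0.42) and Msmo1 (1.21 ± 0.21) were (2.73% higher, 1.38% lower). In the control mice of the EAE experiment, the same contrast gave 1.73, 2.29, 1.00 and 1.66 for these 4 genes, of which Elovl6 did not pass (edgeR adjusted p = 0.0919). For spinal cord against hindbrain GLASTneg, 8 members were lower by the labels (4.15% lower, 3.32% higher), namely Dhcr7 (-2.37), Mvd (-1.75), Msmo1 (-1.67), Fdps (-1.65), Insig1 (-1.48), Sqle (-1.22), Hmgcs1 (-1.14) and Scd1 (-0.91), and by the second names Hmgcs1 was higher by 1.01 ± 0.24 (0.421% higher, 0.983% lower), against 0.71 in EAE controls. Labelled calls that ended without a single library were those of Msmo1 in forebrain (4 of 6 libraries), Scd1 in hindbrain (4 of 6), and Sqle, Scd1, Insig1 and Fdps between regions (1, 3, 3 and 2 of 6), with adjusted p up to 0.386.

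Cultured neonatal astrocytes differed from isolated ones in strain, age, region, sorting, RNA extraction and culture at once, which cannot be told apart. By the study's methods they came from cerebrum, with no sort stated, and their RNA was taken with TRIzol, not the kit used for isolated cells. In culture 14 members were lower (9.79% of 17126 genes) and 1, Scap, was higher (26.3%). Dhcr7 differed most in fold (-3.57 ± 0.29, adjusted p = 1.56e-13, edgeR), with group means of 36.5 to 185 CPM in isolated libraries and 10.3 ± 2.05 in culture. Msmo1 had the smallest adjusted p (-2.50 ± 0.20, edgeR adjusted p = 1.09e-13), at 198 ± 57.2 CPM in culture. Also lower were Elovl6 (-2.55), Insig1 (-2.46), Fdft1 (-2.21), Srebf1 (-2.17), Nsdhl (-1.85) and Mvd (-1.79), and by smaller or less certain differences Tm7sf2 (-1.75), Cyp51 (-1.33), Hsd17b7 (-1.23), Sc5d (-0.97), Fdps (-0.90) and Scd2 (-0.69). Hmgcs1 did not pass (-0.02 ± 0.18), with 461 ± 60.3 CPM in culture. The median was -0.80 over the members and 0.43 over all genes, so that relative to the typical gene each member lay 0.43 lower. Under another scaling (RLE) all log2 fold changes shifted by -0.12, and Scap (0.61 ± 0.22) no longer passed, nor did it without any 1 of the 3 cultured libraries; Tm7sf2 ended likewise without any 1 of them (up to 0.158), and Fdps without 9 of 18 libraries (up to 0.153). Astrocyte genes summed to 5509 ± 265 CPM in culture and to group means of 27095 to 36005 in isolated libraries, oligodendrocyte genes to 486 ± 57.4 against 1725 to 13185, and myeloid genes to 358, 596 and 2935 in the 3 cultured libraries; their part in the result was not tested.

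A list of 32 related lipid genes (fatty acid elongation and desaturation, cholesterol transport and storage) was read beside the 30. In SC, 3, 8 and 7 of them were lower and 1, 6 and 0 higher at E1, E4 and Ech, against 4.48%, 12.7% and 11% of all genes lower and 3.94%, 9.76% and 7.64% higher. At Ech against E4, 5 were lower (2.03% of all genes). Fads2, the first desaturase of polyunsaturated fatty acids, had -3.42 ± 0.33 at E4 (adjusted p = 9.3e-14, edgeR), Soat1, which esterifies cholesterol, -2.55 ± 0.31 at Ech (3.81e-10), and Hacd3, of fatty acid elongation, -1.26 ± 0.16 at Ech (2.47e-09). Higher at E4 were Elovl1 (1.47 ± 0.22), which makes very long chain fatty acids, Npc2 (1.01 ± 0.21), a carrier of cholesterol out of lysosomes, and Hsd17b12 (0.81 ± 0.18), of elongation. In HB GLASTneg 1 was higher at E1, and none passed at any other stage of either hindbrain population, whereas in controls 7 were higher and 2 lower in HB GLASTneg than GLASTpos (8.21% and 5.33% of all genes). In culture 11 were lower and 7 higher (9.79% and 26.3%).

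Over the 12 EAE group means, the genes outside the list whose log2 CPM was most like that of Hmgcs1, among 6802 genes that averaged 20 CPM or more, were Mrps25 (Pearson's r 0.94), Gpr155 (0.94), Fam57a (0.93), Kif1b (0.92) and Pcdh9 (0.91). Among members the nearest were Acly (0.90), Elovl6 (0.90) and Lss (0.89). These are descriptions over 12 groups. Members whose counts are less certain are those with 3′ sequence shared with other genes: 74% of the 50-base stretches at the 3′ end of Fdps, 43.2% of those of Idi1, 22.4% of Acaca, 20.9% of Acat2 and 8.73% of Elovl6 occur elsewhere in annotated transcripts.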

How the data were processed

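RNA of sorted and of cultured astrocytes was sequenced as 3′ libraries (QuantSeq FWD) in 66 EAE and 18 subtype libraries, the latter with 3 of cultured astrocytes. Per the labels and the study's methods, the authors aligned reads to GRCm38 with HISAT and used HTSeq (union mode) for counting, giving the deposited raw counts per gene; versions of HISAT (0.1.5) and HTSeq (0.6.1p1) are from the submitters' processing notes. The counting strand is not given in the sources used here. Symbols were found for 48058 of 48526 and 25608 of 25773 gene IDs. Samples were grouped by the labels, and 15 isolated libraries also by second names.

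A gene was kept if its counts over a table summed to 10 or more (23324 in EAE, 14957 in isolated and 17126 in isolated with cultured libraries), scaled by TMM and tested with edgeR 4.0.16 (limma 3.58.1, R 4.3.3), with quasi-likelihood tests of contrasts in fits of all groups of a table and Benjamini-Hochberg adjustment over all genes kept; passed means an adjusted p under 0.05. Log2 fold changes are given with SE. CPM used TMM-scaled library totals. The counts per library gave the depth stated with the results, and values near 0 rest on few counts. The tests were checked on simulated data.

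The 30 members and all lists were chosen with earlier results of these data known. Library values are given for the 10 members with the smallest adjusted p over the stages in spinal cord, for the members first in the F test over the FVB/N sets, and for 8 members in culture; beside members, the text names the 3 related lipid genes with the smallest adjusted p in each direction at E4 or Ech in spinal cord, the 5 genes most alike to Hmgcs1, and region genes chosen after values were seen; 1 result of the label check is not reported here. Alternatives were DESeq2 1.42.0, RLE scaling, no filter and filterByExpr, fits of the populations compared only, a replicate block, a sheet number term, a fold rule and leaving out each library. Same-numbered replicates did not deviate together (mean r -0.0067 over 340 pairs in EAE and -0.0050 over 30 pairs in isolated libraries), so they were not treated as pairs. Libraries of a stage that share a number in their column names had a mean r of 0.041 (49 pairs, 8 of them above 0.1) and others -0.0060 (314 pairs), and that number was added as a block for tests between populations after seeing the data. No replicate pair had identical counts. Coordinates are from GENCODE M21 (GRCm38) and promoters from RefSeq (GRCm38.p6).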

Additional observations from a re-analysis of the deposited data

Results flagged for a closer look

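Over 72 sets of values, each of 1 member in the libraries of 1 group, 5 held a library far from the others by the gap to its neighbour, where chance gives about 1 in 20. In chronic spinal cord, replicate 6 was the highest of 6 for both Msmo1 (480 CPM) and Dhcr7 (43 CPM). Hmgcs1 in spinal cord E1 replicate 2 was the lowest of 5 at 1039 CPM, a library that also held the highest astrocyte sum of that group (25119 CPM). Among hindbrain controls, Fdps was highest of 5 in GLASTneg replicate 2 (55.2 CPM) and Hsd17b7 highest of 5 in GLASTpos replicate 5 (69 CPM).

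The response to EAE differed between spinal cord and hindbrain GLASTneg astrocytes, by the interaction term in edgeR, for Fdft1 (-1.58), Tm7sf2 (-2.74), Msmo1 (-1.18), Srebf1 (-1.97) and Scd1 (-1.26) at E4 and for Msmo1 at Ech (-1.52, spinal cord minus hindbrain on the log2 scale). In hindbrain GLASTneg their own changes at E4 were 0.90, 0.07, 0.31, -0.22 and 0.40, none of which passed, and that of Msmo1 at Ech was -0.35. Astrocyte and oligodendrocyte marker sums shifted in spinal cord at both stages, and their part was not tested.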

How the results depend on the processing

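Outside the second names, no single gene call reversed direction. By the second names, which compare other library sets, Hmgcs1 in FVB/N spinal cord against hindbrain went from lower to higher, passing both times. By the labels, 25 of the 30 members were below 0 in that pair (median log2 fold change -0.66). By the second names, 25 were above 0 (median 0.23). With spinal cord sheet numbers above 56 only, chosen after seeing the data, E1 had 5 members higher and Ech 6 lower. With a sheet number term, E4 had 1 higher, control spinal cord against hindbrain had 0 higher and 0 lower, and the E4 response 3; 5 of 6 stayed lower at E4. When a call also needed a log2 fold change above 1 or below -1, E1 had 4 higher, E4 1 higher, Ech against E4 4 lower, hindbrain GLASTpos E4 0 higher, control spinal cord against hindbrain 1 higher and 0 lower, culture 0 higher and FVB/N forebrain 0. With libraries of the populations compared only, hindbrain GLASTneg had 1 higher at E1 and 2 at E4, control spinal cord 1 higher and the Ech response 5. DESeq2 gave 1 lower in hindbrain GLASTpos E4, 2 for the Ech response, 0 higher in culture and 4 for FVB/N hindbrain. No filter gave 0 lower in control spinal cord against hindbrain and 2 for the Ech response. RLE scaling and filterByExpr each gave 0 higher in culture. With column numbers as a block, also added after seeing the data, control spinal cord against hindbrain had 1 higher and 0 lower and the Ech response 4. By second names, FVB/N forebrain had 0, hindbrain 4 and spinal cord against hindbrain 1. Shares of all genes were kept only for the column number block and the second names. The other alternative counts in this section have no such share from their own fits. The cause of these changes was not tested.

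The replicate block, whose numbers do not pair the samples, gave 9 higher at E1, 6 lower and 4 higher at E4, 10 lower at Ech, 16 higher in control hindbrain, 1 lower in hindbrain GLASTpos E4 and 0 lower in control spinal cord against hindbrain.

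Without single libraries, counts ranged over 6 to 11 higher at E1, 4 to 6 lower and 3 to 5 higher at E4, 8 to 11 lower at Ech, 5 to 9 lower for Ech against E4, 0 to 1 higher in hindbrain GLASTpos E4, 14 to 15 higher and 0 to 1 lower in control hindbrain, 0 to 2 higher and 0 to 1 lower in control spinal cord against hindbrain, 4 to 6 and 1 to 2 for the E4 and Ech responses, 12 to 16 lower and 0 to 1 higher in culture, 6 to 10 over the FVB/N sets, and 0 to 1, 1 to 2 and 7 to 8 for FVB/N forebrain, hindbrain and spinal cord pairs. Of single gene calls, 1068 held and 120 were lost without a library, and 585 held and 45 were lost under other alternatives. That tally leaves out the fold rule and the second names. FVB/N libraries were the shallowest, which limits what their counts can show.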
